A study of Mus musculus with 12 samples.

Results

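The genes described here are 10 genes of the blood-brain barrier and of drug efflux in brain endothelium: *Abcb1a*, *Abcb1b*, *Abcg2*, *Abcc4*, *Cldn5*, *Ocln*, *Pecam1*, *Cdh5*, *Slc2a1*, and *Flt1*. They were chosen by name out of the 55418 genes of the count table, and all 10 passed the filter on low counts in every comparison. RNA was measured in brainstem (medulla and pons) of 12 outbred CFW mice at P15, with 1 library per mouse. Saline or morphine (15 mg/kg) was injected subcutaneously on each day from P1 to P14, and tissue was taken 16 h after the last injection. Each of the 4 groups of treatment and sex held 3 mice, and saline mice were the controls in each comparison. The mice carried no transgene or engineered allele in the labels. The labels do not give the dam, so littermates could not be modelled.

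The blood-brain barrier is formed by endothelial cells that are sealed to each other by tight and adherens junctions and that pump many drugs back into the blood. P-glycoprotein, encoded in mice by *Abcb1a* and *Abcb1b*, transports morphine, and BCRP (*Abcg2*) and MRP4 (*Abcc4*) are efflux pumps of the same ATP-binding cassette superfamily. Claudin-5 (*Cldn5*), occludin (*Ocln*), PECAM1, and VE-cadherin (*Cdh5*) sit at the contacts between cells, GLUT1 (*Slc2a1*) carries glucose into the brain, and *Flt1* encodes a receptor for VEGF. *Ocln*, *Slc2a1*, and *Abcc4* are also made by epithelium of the choroid plexus, and *Slc2a1* is also made by glia. In bulk tissue, fewer cells of a type and less RNA per cell cannot be told apart.

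*Abcb1a* (chr5:8660077-8748575) and *Abcb1b* (chr5:8798147-8866315) are neighbors on the plus strand of GRCm38 and share a run of 338 identical bases of coding sequence. A 100-base read lying wholly within identical sequence cannot be assigned to either gene from its letters alone. Of the 4898 possible 100-base windows of the *Abcb1a* transcript, 367 (7.49%) also occur in *Abcb1b*, and these are 8.72% of the 4207 windows of *Abcb1b*. The second exon block of the shared run is shown because it encodes the LSGGQ signature of ABC transporters, whose codons are in capitals. It lies at chr5:8702793-8702944 in *Abcb1a* and, with the same 152 bases, at chr5:8825113-8825264 in *Abcb1b*.
Abcb1a and Abcb1b: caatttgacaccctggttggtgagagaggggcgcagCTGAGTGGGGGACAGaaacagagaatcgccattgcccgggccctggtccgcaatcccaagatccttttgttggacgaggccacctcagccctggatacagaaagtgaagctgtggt

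The members also differ in base composition, and the libraries differed in the level of GC-rich genes. The longest annotated transcript was 60.5% GC for *Cldn5* and 54.0% for *Slc2a1*, and it was 39.2% for *Abcg2*. The first 120 bases of the longest coding stretch of *Cldn5* and of *Abcg2* in GRCm38 are shown to make that contrast visible, with G and C in capitals. They lie on the plus strand at chr16:18776996-18777115 (*Cldn5*, its single exon) and chr6:58674568-58674687 (*Abcg2*, coding exon 8). Their GC contents were 59.2% and 38.3%.
Cldn5: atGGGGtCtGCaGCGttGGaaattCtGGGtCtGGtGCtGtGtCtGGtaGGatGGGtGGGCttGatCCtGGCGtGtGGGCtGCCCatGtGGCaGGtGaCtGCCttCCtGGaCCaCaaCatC
Abcg2: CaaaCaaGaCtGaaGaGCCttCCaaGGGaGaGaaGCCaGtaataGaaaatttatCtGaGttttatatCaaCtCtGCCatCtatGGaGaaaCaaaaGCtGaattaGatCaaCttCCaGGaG

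Total counts per library ranged from 27850565 to 48097947, which puts every member at 80 or more counts in each library. For the labelled tissue, 8 genes of brainstem nuclei and hindbrain position summed to between 103 and 141 CPM (counts scaled to a library size that is the same for all libraries) in each library and none was at 0. A list of 24 endothelial genes, which includes *Cldn5*, *Pecam1*, *Cdh5*, and *Flt1*, summed to between 571 and 727 CPM. The library labelled morphine male 6 went against its sex label: *Xist* was at 380 CPM, against 0.398 to 2.71 in the other males and 547 to 970 in females, and *Ddx3y* was at 12.8 CPM, against 118 to 199 in the other males and 0.0576 to 0.729 in females. Its values for both genes thus lay between those of the sexes. Libraries also differed in the level of GC-rich relative to GC-poor genes, taken as the upper and lower quartiles of transcript GC (at least 54.0% and at most 44.4%). This GC difference was 0.71 and 0.90 (log2) in saline males 1 and 2 and -0.94 in saline male 3. It lay between -0.52 and 0.47 in the other 9 libraries, with the highest of these values in the library labelled morphine male 6.

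Levels of different genes were compared as CPM per kb of annotated exon. *Slc2a1* (21.8 ± 7.13 CPM per kb, SD, n = 12) and *Cldn5* (21.2 ± 9.51) were highest and could not be ordered, since *Slc2a1* was above *Cldn5* in 7 of 12 libraries. *Abcb1a* followed at 6.98 ± 0.621 CPM per kb, and its range did not overlap that of *Cldn5*. *Flt1* (6.39 ± 0.434), *Pecam1* (5.72 ± 0.436), *Cdh5* (5.07 ± 0.609), and *Ocln* (4.56 ± 0.507) came next, each overlapping its neighbor in the order. *Abcg2* (3.87 ± 0.491) was below *Ocln* in 12 of 12 libraries although their ranges over libraries overlapped. *Abcc4* (2.45 ± 0.243) and *Abcb1b* (0.438 ± 0.0765) were lowest, and neither range overlapped that of its neighbors. Exon length counts all annotated exons, so a gene with many unused exons is placed too low. It was 13504 bases for *Flt1*, 6228 for *Pecam1*, and 8153 for *Abcg2*, where the longest transcripts had 6895, 3441, and 5717. For *Abcb1a* and *Ocln* it was 5480 and 4222 bases, close to their longest transcripts of 4997 and 4052. The place of *Flt1*, *Pecam1*, and *Abcg2* in the order thus depends on the length used. *Abcb1b* had 7990 bases of annotated exon and a longest transcript of 4306, so its distance below the other members also depends on the length.

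**Figure D1:**
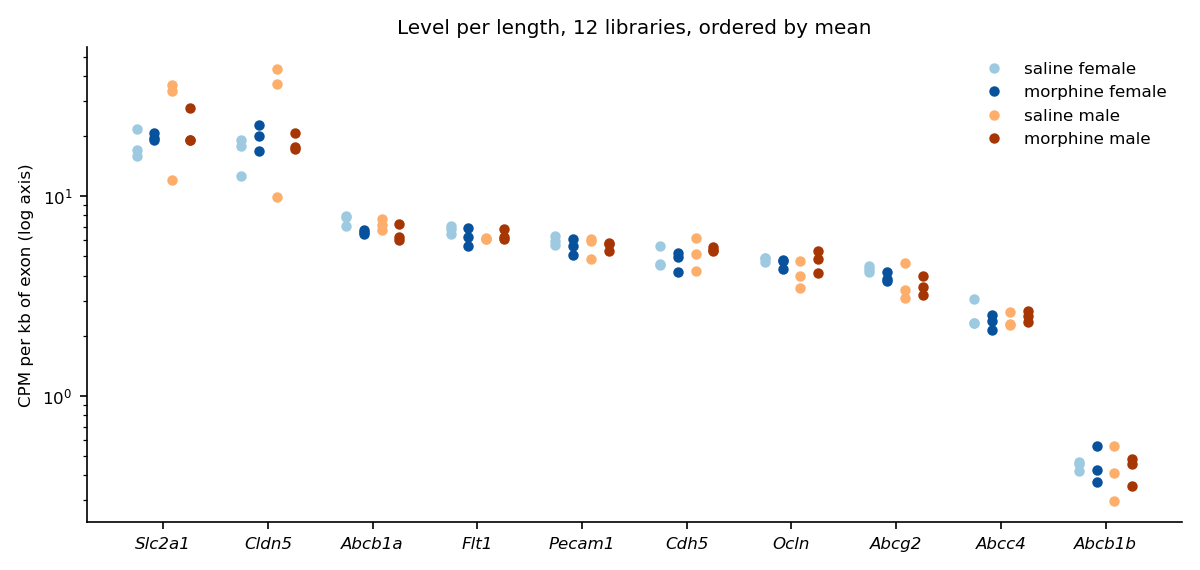
Level of each gene per length (CPM per kb of annotated exon, log axis) in 12 libraries, with genes ordered by their mean and points colored by group. *Slc2a1* and *Cldn5* spread widely in saline males (light orange), while *Abcb1b* lies below all other members in every library.

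The comparison of interest was morphine against saline in both sexes combined, in females, and in males. A gene was called when its unadjusted p was under 0.05 and its absolute log2 fold change was over 0.26 in the quasi-likelihood test of edgeR, fitted on all genes. None of the 10 members was called with the sexes combined, where 1.19% of 18608 genes were called. None was called in females, where 1.81% of 18109 genes were called, or in males, where 2.99% of 18166 genes were called. No member had an unadjusted p under 0.05 in any of these comparisons, and by DESeq2 and the exact test of edgeR the number of members called was also 0. Each member had an adjusted p of 1.00 by the quasi-likelihood test with Benjamini-Hochberg adjustment, and no gene of the table had an adjusted p under 0.05 by that test in these comparisons. In females, 3 genes of the table had an adjusted p under 0.05 by DESeq2 and 3 by the exact test. In males 1 gene did by the exact test. With the sexes combined, 3 members were higher and 7 lower, beside 42.6% of all genes higher, with a median log2 fold change of -0.03 beside -0.02 for all genes. The median was -0.09 in females (all genes -0.01) and 0.00 in males (all genes -0.06).

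**Figure D2:**
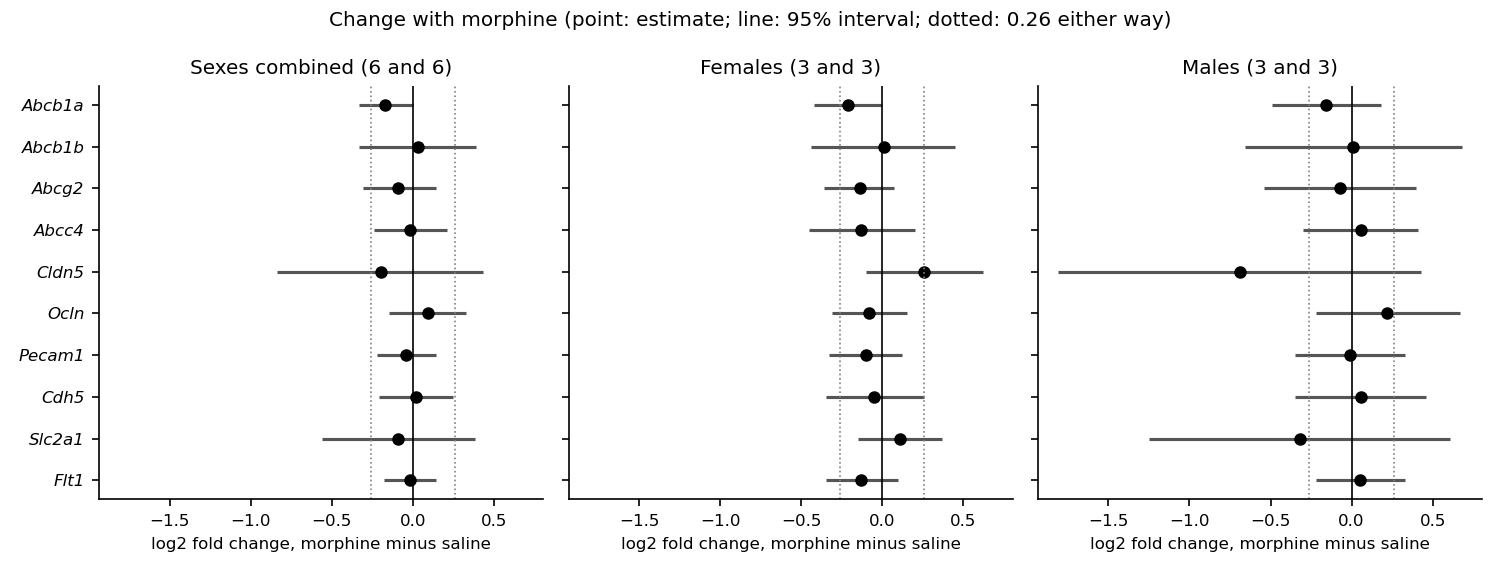
Log2 fold change of each member, morphine minus saline, with its 95% interval, for the sexes combined (6 and 6 mice), females, and males (3 and 3 mice each). Each interval reaches 0, the *Abcb1a* interval for the sexes combined ends at 0.00, and the widest intervals are those of *Cldn5* and *Slc2a1* in males.

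*Abcb1a*, the main P-glycoprotein gene of mouse brain capillaries, came closest to the threshold on p. In females its level was 42.8, 38.6, and 43.8 CPM with saline and 35.3, 36.3, and 37.2 CPM with morphine. In males it was 37.1, 39.1, and 42.0 CPM with saline and 34.2, 39.5, and 33.0 CPM with morphine. The female groups did not overlap, and in males only morphine male 5 was within the saline range. Means were 40.6 ± 2.68 CPM with saline and 35.9 ± 2.31 CPM with morphine (SD, n = 6), and 4 of 6 morphine libraries were below every saline library. The log2 fold change was -0.17 (SE 0.08, 95% interval -0.33 to 0.00), with an adjusted p of 1.00 by edgeR. It was -0.21 in females (SE 0.10, 95% interval -0.42 to 0.00) and -0.16 in males (SE 0.14, 95% interval -0.49 to 0.18). The male value was -0.07 without saline male 3, -0.27 without saline males 1 and 2, and -0.03 when libraries were scaled by total counts. An exact permutation test of mean log2 CPM in 6 against 6 mice, two-sided and ignoring sex, gave p = 0.0173, and for the other 9 members this p was between 0.431 and 0.918. These permutation p values were not adjusted for the number of members, and *Abcb1a* had the smallest. With loess offsets for GC content and gene length, a setting added after the data were seen, the log2 fold change was again -0.17 (SE 0.06). With these offsets it was -0.15 in females (SE 0.09) and -0.20 in males (SE 0.09). Over 22 alternative fits with the sexes combined, the unadjusted p was under 0.05 in 9, DESeq2 and these offsets among them, and the log2 fold change ran from -0.21 to -0.12, so its size was under 0.26 in each. Without the library labelled morphine male 6 the log2 fold change was -0.15 (SE 0.08), with an unadjusted p of 0.107 by edgeR. By the exact test of edgeR with the sexes combined, the unadjusted p was 0.0997.

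*Abcb1b*, the second P-glycoprotein gene, was between 2.38 and 4.47 CPM in all libraries and its log2 fold changes were 0.03 with the sexes combined, 0.01 in females, and 0.01 in males. Its SE of 0.17 with the sexes combined was larger than that of *Abcb1a*, with 80 to 150 counts per library. *Abcb1b* took 6.04% of the counts of both genes in saline male 1 (95% Wilson interval 4.88 to 7.46%) and 11.2% in morphine female 1 (9.61 to 13.1%), the lowest and highest of the 12 libraries. The share was 7.87% ± 1.25 with saline and 8.92% ± 1.35 with morphine (SD, n = 6, exact permutation test, two-sided, p = 0.195). These intervals cover counting error only. Part of the exons of *Abcb1a* (553 bases) and of *Abcb1b* (143 bases) overlap genes on the opposite strand, *Gm42686* and *Gm5106*, and the strand setting of the counting is not given in the sources used here.

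The efflux pump *Abcg2* was at 35.1, 33.9, and 36.3 CPM in saline females and 30.6, 33.9, and 31.4 CPM in morphine females. The female groups did not overlap, by a narrow margin between saline female 5 and morphine female 2. In males, *Abcg2* was at 27.7, 25.2, and 37.5 CPM with saline and 28.6, 32.3, and 26.1 CPM with morphine, and here the saline range enclosed the morphine range. The log2 fold change was -0.14 in females (SE 0.10, adjusted p = 1.00 by edgeR) and -0.07 in males (SE 0.20, adjusted p = 1.00). The male value was 0.16 without saline male 3, -0.19 without saline male 2, -0.40 without saline males 1 and 2, and 0.06 when libraries were scaled by total counts, so its direction was not stable. *Abcb1a* and *Abcg2* were thus the 2 members whose female groups did not overlap, beside 5.65% of all genes tested in females, and 0.100 is the smallest p that exact permutation of 3 against 3 mice allows. No member had groups that did not overlap with the sexes combined (0.0430% of all genes) or in males (9.10%).

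*Abcc4*, which exports cyclic nucleotides and drug conjugates, was between 13.6 and 19.4 CPM and had log2 fold changes of -0.13 in females (SE 0.15) and 0.06 in males (SE 0.15). Its highest level was in saline female 6, and saline and morphine libraries overlapped in both sexes.

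**Figure D3:**
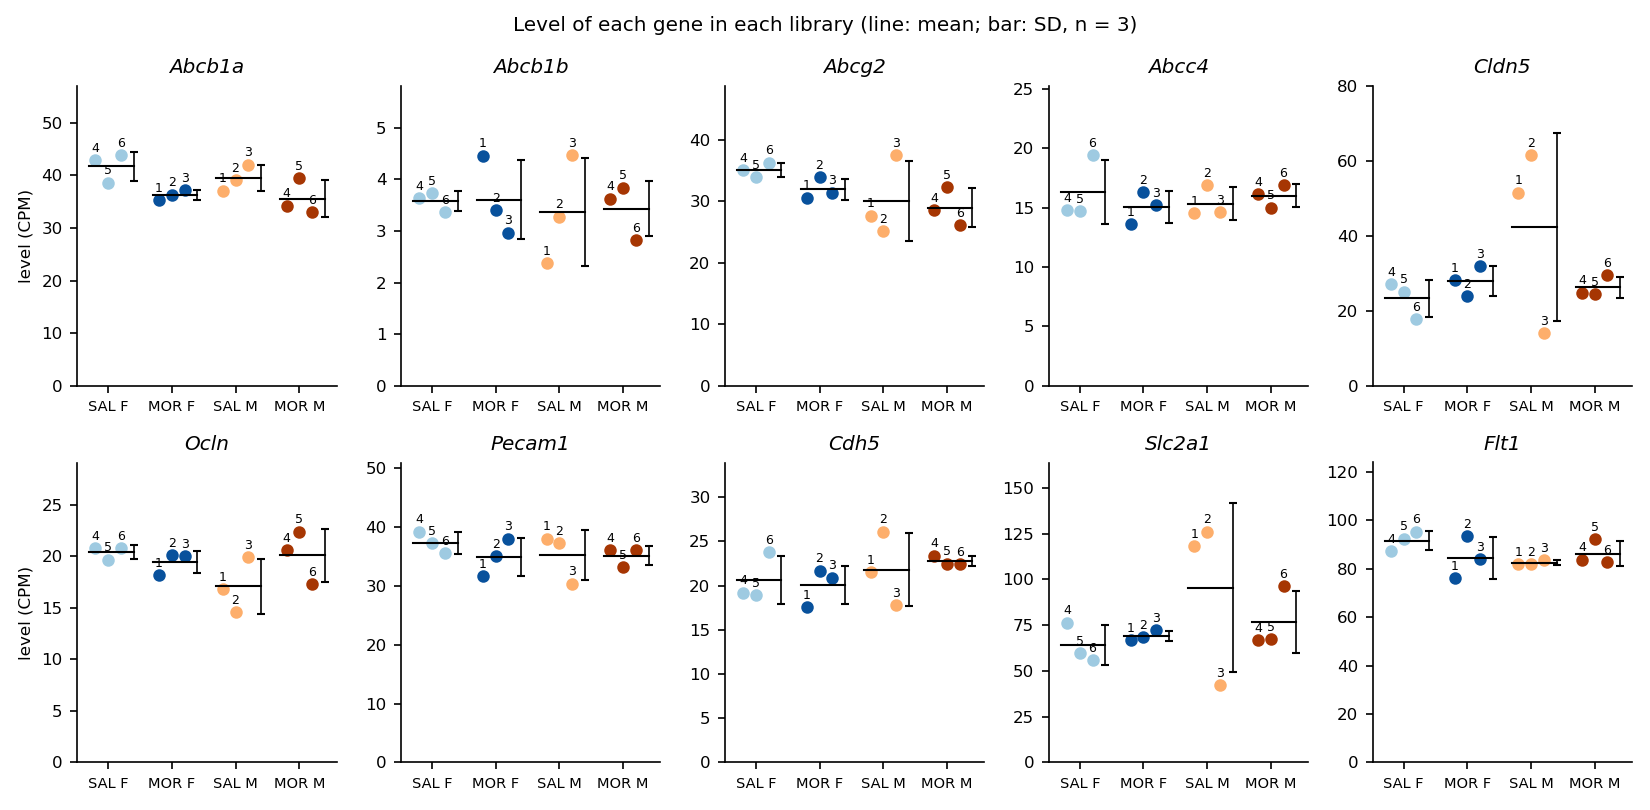
Level of each member (CPM, axes from 0) in each library, with the replicate number above each point, the mean as a line, and the SD as a bar (n = 3) for saline (SAL) and morphine (MOR) females (F) and males (M). *Abcb1a* is lower in each morphine female than in each saline female, and *Cldn5* and *Slc2a1* are far apart among the 3 saline males.

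*Cldn5*, the main claudin of brain endothelium, varied more than the other members. In females it was at 27.1, 25.2, and 17.8 CPM with saline and 28.3, 24.0, and 32.0 CPM with morphine. In males it was at 51.6, 61.6, and 14.1 CPM with saline and 24.9, 24.5, and 29.5 CPM with morphine. The highest and the lowest of all 12 libraries were thus both saline males, 4.37-fold apart, and the 3 morphine males lay between them. The log2 fold change was 0.26 in females (SE 0.16, 95% interval -0.10 to 0.62), -0.69 in males (SE 0.47, 95% interval -1.81 to 0.43), and -0.20 with the sexes combined (SE 0.29). The adjusted p was 1.00 by edgeR in each. The female and male changes had opposite signs and differed by -0.93 (SE 0.54, 95% interval -2.11 to 0.25), with an adjusted p of 0.985 by edgeR.

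*Slc2a1*, the endothelial and glial glucose transporter, followed the same libraries. In males it was at 118, 126, and 42.2 CPM with saline and 66.7, 67.2, and 96.3 CPM with morphine, and in females it was between 55.9 and 76.4 CPM. The saline males again held both extremes, 2.99-fold apart. Its log2 fold change was 0.11 in females (SE 0.12, 95% interval -0.15 to 0.37) and -0.32 in males (SE 0.39, 95% interval -1.25 to 0.61). The SD of log2 CPM among saline males was 1.16 for *Cldn5* and 0.89 for *Slc2a1*, beside a median of 0.36 for all genes and 0.02 for *Flt1*. For *Slc2a1*, 105 bases of exon overlap the antisense gene *Gm12868*.

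Direction in males depended on which saline males were kept. Without saline male 3, *Cldn5* had a log2 fold change of -1.07 (SE 0.13, adjusted p = 0.00958 by edgeR) and *Slc2a1* of -0.63 (SE 0.18, adjusted p = 0.0501), and both were called. Without saline males 1 and 2, a setting added after the data were seen that leaves 1 saline male, *Cldn5* was at 0.87 (SE 0.19, adjusted p = 0.0715 by edgeR) and *Slc2a1* at 0.83 (SE 0.24, adjusted p = 0.0763). The spread in that fit comes from the 3 morphine males alone, and the single saline male is assumed to vary like them. When the offsets were used on all 6 males, the log2 fold changes were -0.18 for *Cldn5* (SE 0.13, adjusted p = 0.659 by edgeR) and -0.18 for *Slc2a1* (SE 0.22, adjusted p = 0.801). Without saline males 1 and 2, *Cldn5* and *Slc2a1* were also called with the sexes combined, at 0.47 (SE 0.16, adjusted p = 0.359 by edgeR) and 0.35 (SE 0.16, adjusted p = 0.361), where both were slightly lower with all 12 libraries. The number of all genes called in males was 5341 without saline male 3 and 6055 without saline males 1 and 2, against 543 with all 6 males. With the sexes combined it was 2264 without saline males 1 and 2, against 221 with all 12 libraries. The calls of *Cldn5* and *Slc2a1* thus came in settings where calls rose across all genes.

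**Figure D4:**
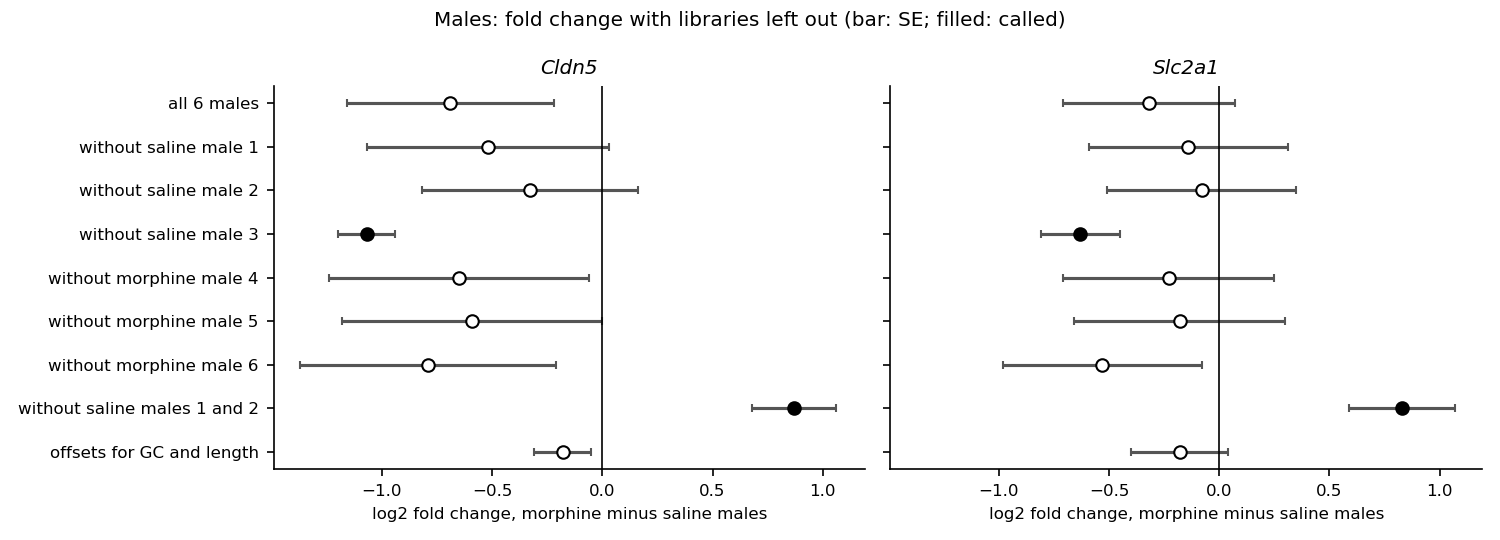
Log2 fold change of *Cldn5* and *Slc2a1* in males, morphine minus saline, with all 6 males, with libraries left out, and after offsets for GC content and gene length (bars, SE; filled points, called). Both genes are negative without saline male 3 and positive without saline males 1 and 2.

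*Ocln*, a tight junction protein, was at 16.8, 14.6, and 19.9 CPM in saline males and 20.6, 22.4, and 17.3 CPM in morphine males. Its log2 fold change was 0.22 in males (SE 0.19, adjusted p = 1.00 by edgeR) and -0.08 in females (SE 0.10, adjusted p = 1.00), and it was called in males only without saline male 3 (0.39, SE 0.14, adjusted p = 0.104 by edgeR). Without the library labelled morphine male 6, the male value of *Ocln* was 0.31 (SE 0.22). *Pecam1*, an adhesion molecule of endothelium, was between 30.4 and 39.2 CPM with a log2 fold change of -0.04 (SE 0.08, sexes combined). *Cdh5*, the cadherin of endothelial adherens junctions, was between 17.6 and 26.1 CPM with a log2 fold change of 0.02 (SE 0.11). *Flt1*, a decoy-like VEGF receptor, was between 76.1 and 95.3 CPM with a log2 fold change of -0.02 (SE 0.07). For these last 3 genes, the 95% intervals with the sexes combined ran from -0.22 to 0.14, from -0.21 to 0.25, and from -0.18 to 0.14, so each interval stayed within 0.26 either way.

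The change with morphine was compared between the sexes by the interaction of treatment and sex. None of the 10 members was called at an unadjusted p under 0.05, beside 2.94% of 19027 genes, and the lowest adjusted p of a member was 0.985 by edgeR. The difference was positive for 8 members and negative for *Cldn5* and *Slc2a1*, beside 45.6% of all genes positive, with a median of 0.10 beside -0.03 for all genes. These signs share the same 3 saline males and are not independent. Leaving out the library labelled morphine male 6, which went against its sex label, gave differences of -1.02 for *Cldn5* (SE 0.60) and -0.60 for *Slc2a1* (SE 0.46). For *Ocln* the difference was then 0.42 (SE 0.22), and no member was called. Without saline male 3, the differences of *Cldn5* (-1.37, adjusted p = 0.00801 by edgeR), *Slc2a1* (-0.78, adjusted p = 0.0398), and *Ocln* (0.43, adjusted p = 0.131) were called, in a setting where 4705 of all genes were called against 559 with all 12 libraries. Without saline males 1 and 2, *Cldn5* (0.64, adjusted p = 0.267 by edgeR) and *Slc2a1* (0.75, adjusted p = 0.199) were called with the opposite sign, and 3635 of all genes were called. No member was called between males and females, with treatment as a covariate, beside 3.94% of 18608 genes called in that comparison. *Abcg2* had the smallest p, with a log2 difference, males minus females, of -0.19 (SE 0.11, adjusted p = 0.734 by edgeR). Without the library labelled morphine male 6 that difference was -0.16 (SE 0.11).

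Levels of the members were also compared with each other across the libraries. Of 45 pairs, 8 had a Pearson correlation of log2 CPM over 12 libraries with an adjusted p under 0.05 (permutation test, 100000 resamples, two-sided, Benjamini-Hochberg over 45 pairs), 3 positive and 5 negative. By Spearman's rho the number was 3. *Cldn5* and *Slc2a1* were the closest pair (r = 0.95, p = 5.00e-05, adjusted p = 0.00225, rho = 0.83, adjusted p = 0.0402), with r = 0.86 without saline males 1 and 2, the libraries farthest from the median of *Cldn5*. *Abcg2* ran opposite to both, with r = -0.81 for *Cldn5* (permutation p = 8.00e-04, adjusted p = 0.0120, rho = -0.80, adjusted p = 0.0402) and r = -0.85 for *Slc2a1* (adjusted p = 0.00967, rho = -0.73, adjusted p = 0.0879). The libraries farthest from the median of *Abcg2* were saline male 2 and the library labelled morphine male 6. Without them r was -0.81 and -0.74, and without saline males 1 and 2 it was -0.68 and -0.75. *Ocln* also ran opposite to *Cldn5* (r = -0.77) and *Slc2a1* (r = -0.76), but without saline males 1 and 2 these were -0.29 and -0.36 and so rested on those libraries. *Abcg2* and *Ocln* ran together (r = 0.76, permutation adjusted p = 0.0276, rho = 0.63, adjusted p = 0.102), with r = 0.51 without saline male 2 and the library labelled morphine male 6. *Abcb1b* ran opposite to *Slc2a1* (r = -0.72, permutation adjusted p = 0.0435, rho = -0.69, adjusted p = 0.0953), and without saline males 1 and 3 this was -0.44.

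The remaining pair was *Abcc4* and *Cdh5* (r = 0.76, permutation p = 0.00347, adjusted p = 0.0276, rho = 0.81, adjusted p = 0.0402), with r = 0.85 without saline female 6 and the library labelled morphine male 6. The endothelial junction genes *Cdh5* and *Pecam1* had r = 0.41 (adjusted p = 0.343, rho = 0.13, adjusted p = 0.829), and without morphine female 1 and saline male 3 it was -0.40. Both P-glycoprotein genes had r = 0.28 with each other (adjusted p = 0.512 by permutation, rho = 0.29). The members share depth and library preparation, and they were chosen as a group, so these values describe the 12 libraries. After offsets for GC content and gene length, 2 pairs had an adjusted p under 0.05, *Abcc4* with *Cdh5* (r = 0.79) and *Abcg2* with *Pecam1* (r = 0.86), of which the second was at -0.33 before. The sign turned for *Abcg2* with *Cldn5* (0.51) and *Slc2a1* (0.28) and for *Ocln* with *Cldn5* (0.21) and *Slc2a1* (0.19), and *Cldn5* with *Slc2a1* went to 0.56.

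Each member was then set against 4 measures of the libraries, chosen after the data were seen: the GC difference and the log2 summed CPM of choroid plexus, meningeal fibroblast, and pericyte markers, which made 40 relations. The GC difference had an adjusted p under 0.05 for *Cldn5* (r = 0.96, permutation p = 2.00e-05, adjusted p = 4.00e-04, rho = 0.92), *Slc2a1* (r = 0.99, p = 1.00e-05, the smallest that these permutations can give, adjusted p = 4.00e-04, rho = 0.91), *Abcg2* (r = -0.90, adjusted p = 0.00147, rho = -0.87), and *Ocln* (r = -0.76, adjusted p = 0.0352, rho = -0.56, adjusted p = 0.213). Without saline males 2 and 3, the libraries farthest from the median, r was 0.90, 0.97, -0.83, and -0.77. Over the 9 libraries other than saline males, r was 0.79 for *Cldn5*, 0.94 for *Slc2a1*, and -0.83 for *Abcg2*. Over the 10 members, the correlation with the GC difference itself rose with the GC content of the transcript (r = 0.89 across genes, which are not independent replicates). This measure is built from genes of high and low GC, so genes of extreme GC tend to follow it. After offsets for GC content and gene length, the log2 range over the 12 libraries went from 2.12 to 0.45 for *Cldn5*, from 1.58 to 0.86 for *Slc2a1*, and from 0.41 to 0.38 for *Abcb1a*. The offsets were fitted to the GC trend of these same libraries. Genes that follow that trend therefore lose range by construction.

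**Figure D5:**
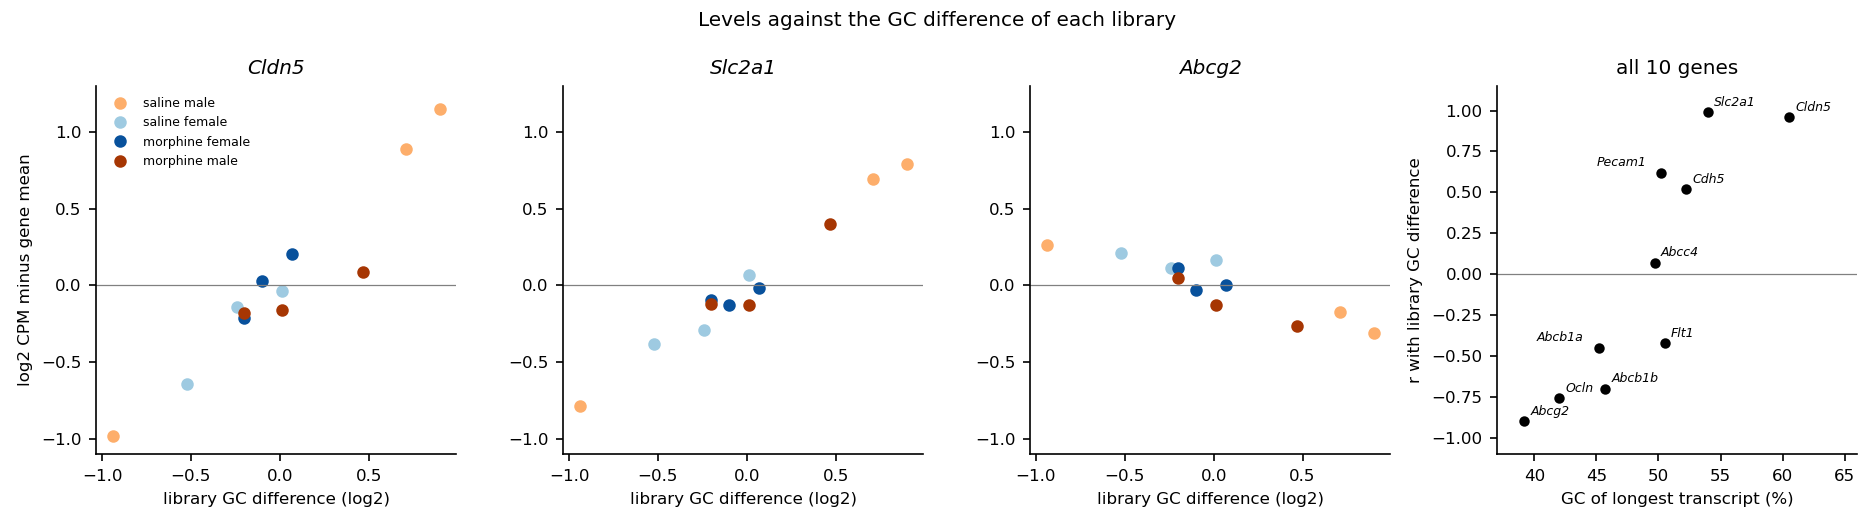
Log2 CPM of *Cldn5*, *Slc2a1*, and *Abcg2*, each relative to its own mean, against the GC difference of the library (log2, GC-rich minus GC-poor genes) for 12 libraries colored by group, and, at right, the correlation of each member with the GC difference against the GC content of its longest transcript. *Cldn5* and *Slc2a1* rise and *Abcg2* falls with the GC difference, and saline males are at both ends.

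Of the other cell types, the summed CPM of pericyte markers went with *Abcb1a* (r = 0.75, permutation p = 0.00440, adjusted p = 0.0352, rho = 0.66, adjusted p = 0.152). *Rgs5* made up most of that sum, at 297 ± 37.7 CPM with saline and 277 ± 38.1 CPM with morphine (SD, n = 6). Gene by gene, the median r with *Abcb1a* was 0.06 for 6 pericyte markers, beside 0.05 for all genes compared. The relation with the sum fell to r = 0.48 without the libraries labelled morphine males 4 and 6 and so rested on them. The 10 pericyte markers summed to 437 to 485 CPM in saline females, 438 to 448 in morphine females, 461 to 484 in saline males, and 394 to 487 in morphine males, and none was at 0 in any library. The part of this in the level of *Abcb1a* was not tested. Choroid plexus markers varied most, from 12.4 to 487 CPM in saline females, 32.8 to 170 in morphine females, 275 to 537 in saline males, and 428 to 862 in morphine males, with *Folr1* at 0 in 1 or more libraries. No member had an adjusted p under 0.05 with them or with the 8 meningeal fibroblast markers, which summed to 154 to 234 CPM in saline females and 92.1 to 177 in morphine females.

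By likeness over the 12 libraries, the 5 genes closest to *Abcb1a* among 11628 genes of at least 5 CPM were *Pde7b* (r = 0.84), *Slc25a13*, *Wasf3*, *Anxa5*, and *Ccdc126* (each r = 0.83). Those closest to *Cldn5* were *Slc35a4*, *Mapk8ip1*, *Ccdc12*, *Rasl10b*, and *Clpp*, each with r = 0.99. Their transcripts were 55.9 to 59.6% GC, except *Ccdc12* at 48.4%. For both members these are the highest of 11628 values over 12 libraries, so they are high in part by selection. The median r of 15 other endothelial genes of at least 5 CPM was 0.07 with *Abcb1a* and 0.08 with *Cldn5*, beside medians over all genes of 0.05 and 0.02. For 12 other junction genes the medians were 0.13 and 0.47, for 20 other transporters -0.32 and 0.19, and for 6 pericyte markers 0.06 and 0.14.

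The other genes of the barrier showed few calls. Counts of called genes in this and the next lists stand beside the shares of all genes called. These were 1.19% with the sexes combined, 1.81% in females, 2.99% in males, 2.94% for the interaction, and 3.94% between the sexes. Genes of the same list are not independent replicates. Of 21 other transporters, none was called with the sexes combined or in females, and *Abcc5*, a pump of cyclic nucleotides, was among those higher in morphine males (0.33, SE 0.11). Of 14 tested among 16 other junction genes, *Jam3* was lower in morphine males (-0.40, SE 0.17), and no gene was called in females or with the sexes combined. Each of these had an adjusted p of 0.985 or 1.00 by edgeR.

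Of 24 endothelial genes, 2 were called with the sexes combined. *Emcn*, a sialomucin of endothelium, was at 8.59 ± 0.964 CPM with saline and 6.84 ± 0.819 CPM with morphine (SD, n = 6), a log2 fold change of -0.32 (SE 0.11, adjusted p = 1.00 by edgeR). *Itm2a* was called as higher (2.67, SE 0.80, adjusted p = 1.00 by edgeR), but it was at 32.3 CPM in morphine female 1, at 24.0 CPM in the library labelled morphine male 6, and between 1.28 and 2.33 CPM in the other 10 libraries. It was also called in females (2.78, SE 0.98) and in males (2.55, SE 1.04). Of 15 genes of VEGF signaling, *Esm1*, a marker of endothelial tip cells, was lower in morphine females (-1.19, SE 0.34, adjusted p = 1.00 by edgeR) and *Apln*, a ligand of the apelin receptor, was lower in morphine males (-0.32, SE 0.13). The level of *Esm1* was low, at 1.28 to 2.09 CPM in saline females and 0.553 to 1.04 CPM in morphine females. In the interaction *Nrp1*, a coreceptor for VEGF, was positive (0.42, SE 0.17) and *Apln* negative (-0.42, SE 0.19). None of 12 genes of the Wnt pathway that maintains the barrier was called in any comparison, and *Lrp5*, a Wnt coreceptor, came closest between the sexes. None of 4 tested markers of leaky or activated endothelium was called, and *Sele* and *Selp* were at 0 in 1 or more libraries.

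Of the mural cells, no gene of 10 pericyte markers was called with morphine. Of 4 tested smooth muscle markers, *Acta2* (-0.61, SE 0.18) and *Myh11* (-0.54, SE 0.17), contractile proteins of arterial walls, were lower in morphine females. Meningeal markers moved in the same mice: *Dcn* (-0.76, SE 0.19), *Col3a1* (-0.87, SE 0.35), and *Slc6a13* (-0.75, SE 0.25), 3 of 8, were lower in morphine females, and *Dcn* was also lower with the sexes combined (-0.49, SE 0.22). In the interaction *Myh11* (0.66, SE 0.30), *Slc6a13* (0.84, SE 0.38), and the choroid plexus marker *Kl* (1.35, SE 0.60) were called. In morphine males, 6 of 8 choroid plexus markers were higher, led by *Folr1* (1.06, SE 0.30, adjusted p = 1.00 by edgeR), *Slc4a5* (0.75, SE 0.27), *Clic6* (0.88, SE 0.33), and *Otx2* (1.02, SE 0.41). Of the neural and regional markers, the myelin gene *Mobp* was lower in morphine males (-0.42, SE 0.18) and *Hoxb4* was lower with the sexes combined (-0.33, SE 0.14). No marker of red blood cells, astrocytes, microglia, or neurons was called with morphine. Between males and females, 6 of 8 choroid plexus markers (led by *Aqp1*, 1.58, SE 0.54), 2 of 8 meningeal markers (*Igf2*, 0.86, SE 0.24, and *Slc6a13*, 0.49, SE 0.22), 2 of 10 pericyte markers (*Vtn*, 0.39, SE 0.17, and *Anpep*, 0.30, SE 0.13), 2 of 4 smooth muscle markers (*Acta2*, 0.47, SE 0.20, and *Myl9*, 0.46, SE 0.18), and the microglial *Aif1* (0.36, SE 0.15) were higher in males, each with an adjusted p of 0.734 by edgeR. The library labelled morphine male 6, which went against its sex label, counts as a male here, and no fit of these markers without it is given. The part of vessel, meningeal, and choroid plexus content in the levels of the members was not tested.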

How the data were processed

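RNA was sequenced as poly-A libraries with 100-base reads from the brainstem of 12 mice, and the labels gave treatment, sex, and a replicate number. The authors used Trimmomatic for trimming, STAR for alignment to mm10, and featureCounts for counting on exons. The deposited values are whole-number counts per gene without normalization, although the deposited extraction text names spinal cords while the labels name brainstem. No column was left out.

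The members and the gene lists were chosen with earlier results of these data known. Counts were tested over all genes with the quasi-likelihood test of edgeR 4.0.16 (R 4.3.3) after TMM normalization and filterByExpr. Sex was a covariate when the sexes were combined, each sex was also fitted alone, and the interaction and the sex difference were fitted over 12 libraries. Levels are TMM-normalized CPM, and a prior count of 2 was added for log2 values. P values measure the spread between mice. DESeq2 1.42.0, other scalings and filters, a replicate block, and left-out libraries were alternatives, and offsets (loess, span 0.5) and leaving out saline males 1 and 2 were added after seeing the data. All 55418 symbols matched GENCODE M21 (GRCm38), and 115 stood for several genes. Named genes were taken from the members, of each list up to 4 called genes per comparison or else the gene with the smallest p, the 5 genes most like *Abcb1a* and *Cldn5*, and the sex-label genes. Some results for a listed transporter and some sequence are not reported here. The fits were tested on simulated data.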

Additional observations from a re-analysis of the deposited data

Results flagged for a closer look

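*Slc2a1* in the library labelled morphine male 6 stood apart from the other 5 morphine libraries. It was at 96.3 CPM, against 66.7 to 72.1 CPM in the others, a gap of 0.817 of the range where 0.625 is the limit for 6 samples. It was the 1 such value among 20 groups of 6 libraries examined, and chance gives about 1 in 20. The same library went against its sex label and had a GC difference of 0.47, the highest of the morphine libraries, and the part of either in this level was not tested.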

How the results depend on the processing

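The count of members called stayed at 0 in 22 of 23 alternatives with the sexes combined, 14 of 15 in females, 14 of 16 in males, 17 of 20 for the interaction, and 20 of 22 between the sexes. Leaving out saline males 1 and 2 together gave 2 members with the sexes combined (*Cldn5* 0.47 and *Slc2a1* 0.35, both reversed), 3 in males (*Cldn5* 0.87 and *Slc2a1* 0.83, both reversed, and *Abcg2* -0.40), and 2 for the interaction (*Cldn5* 0.64 and *Slc2a1* 0.75, both reversed). With no filter on low counts, 1 member was called in the interaction (*Cldn5* -0.95) and 1 between the sexes (*Slc2a1* 0.37). Leaving out 1 library at a time gave 0 with the sexes combined, 0 to 1 in females (1 without saline female 4, *Cldn5* 0.37), 0 to 3 in males, 0 to 3 for the interaction, and 0 to 2 between the sexes, the highest of the last 3 each without saline male 3. Calls among all genes rose in the same settings: without saline male 3 to 5341 in males, 4705 for the interaction, and 3947 between the sexes, without saline female 4 to 1482 in females, without saline males 1 and 2 to 2264 with the sexes combined, 6055 in males, and 3635 for the interaction, and with no filter to 1665 for the interaction and 2321 between the sexes. The number of member pairs with an adjusted p under 0.05 was 8, with 4 to 9 over leaving out 1 library, 2 after offsets for GC content and gene length, and 3 without saline males 1 and 2. It was 4 without saline male 1 or saline female 6 and 5 without saline male 2 or the library labelled morphine male 6. The cause of these shifts was not tested. With the replicate number as a block, 0 members were called with the sexes combined and between the sexes, and all genes called went from 221 to 204 and from 733 to 483. Same-numbered deviations from the group means correlated between -0.35 and 0.18. Differently numbered libraries were not set beside them and the GC difference was not removed, so whether the numbers pair mice could not be decided. The interaction could not be fitted with the block, and within a sex the groups shared no numbers. In the fits with no filter, all genes called with the sexes combined rose from 221 to 754. At 80 to 150 counts per library, counting error limits *Abcb1b* more than the other members.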
